A study of Arabidopsis thaliana with 12 samples.

Results

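The SWEET genes of Arabidopsis thaliana encode sugar transporters of the plant membrane, and their signals were followed here in roots and shoots with and without exposure to caesium-137. The members were taken from the array's platform annotation as probe sets (sets of short probes that measure 1 transcript) naming a single gene whose symbol starts with SWEET or ATSWEET. The rule found 15 of 22810 probe sets. Of these, 14 belong to SWEET transporters, namely SWEET1, SWEET2, SWEET3, SWEET4, SWEET6, SWEET7, SWEET8, SWEET9, SWEET10, SWEET11, SWEET13, SWEET14, SWEET16 and SWEET17. The other is SWEETIE (AT1G67140), which shares the first letters of its name but is not a SWEET transporter, so its values are given apart. A hand-written list of the Arabidopsis family holds 17 loci, which were matched to the RefSeq gene table of the TAIR10.1 assembly. SWEET5 (AT5G62850, annotated as AtVEX1) and SWEET15 (AT5G13170, annotated as SAG29) have probe sets under their other symbols and are given beside the members where they bear on them, and SWEET12 was not analysed here.

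Total RNA was hybridised to 12 ATH1 arrays, with 3 replicates in each of 4 groups: roots of caesium-exposed plants (Cs roots), roots of control plants (control roots), shoots of caesium-exposed plants (Cs shoots) and shoots of control plants (control shoots). The series title describes the exposure as low and chronic, and the samples' labels name it cs. The labels give a developmental stage of 1.0 for all 12 samples, with no word on the scale. The sources used here do not give the dose, the length of exposure, the plants' age in days, the accession of Arabidopsis or the number of plants behind an array. No label says that the 3 replicates of a group came from separate plants, so the p-values measure only how far these arrays differ, and that spread may be technical.

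SWEET proteins are uniporters, which let sugar pass through a membrane down its concentration gradient in either direction. Members of the clade that holds SWEET11, SWEET12, SWEET13, SWEET14 and SWEET15 carry sucrose across the plasma membrane, and SWEET11 with SWEET12 releases sucrose from phloem parenchyma cells of the leaf, the step before it is loaded into the phloem for export. SWEET1 and SWEET4 carry hexoses across the plasma membrane. SWEET2, SWEET16 and SWEET17 sit in the tonoplast, the membrane of the vacuole where plant cells store sugar. Several others act in flowers, in pollen or in nectaries.

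The values are deposited MAS5 signals, a brightness per probe set on a linear scale, which Affymetrix software computes from the probes and scales to a common mean per array. Signals of different probe sets cannot be set against each other as transcript levels, so every comparison below is within a probe set. Fold changes are differences of log2(signal + 11) between group means, from a limma model over all 12 arrays. A probe set was tested if its mean log2 signal reached the 40th percentile of all probe sets in at least 1 tissue, a signal of 28.0 in shoot and 31.2 in root, and was called if its p-value, adjusted by Benjamini-Hochberg over all 15508 probe sets tested, was under 0.05. Of the 14 SWEET transporters found by the rule 7 were tested: SWEET1, SWEET2, SWEET4, SWEET11, SWEET13, SWEET16 and SWEET17. The other 7 stayed below that limit in both tissues. SWEET4 passed through its shoot signal alone, so its difference between tissues is tied to the way it entered the test. Of the 2 family genes under other symbols, SWEET15 was tested, also through its shoot signal alone, and SWEET5 was not. SWEET15 is counted with no member below. The tissue labels were checked on fixed markers. All 6 measured shoot marker genes were lower in roots, with a median log2 fold change of -4.70 in Cs plants and -5.45 in control plants. PYK10 (a beta-glucosidase of roots) was higher in roots by 2.92 ± 0.28 in Cs plants and 2.85 ± 0.28 in control plants (log2, SE), and EXPA7 (a root hair expansin) by 1.44 ± 0.34 and 1.56 ± 0.34 in the same order.

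**Figure D1:**
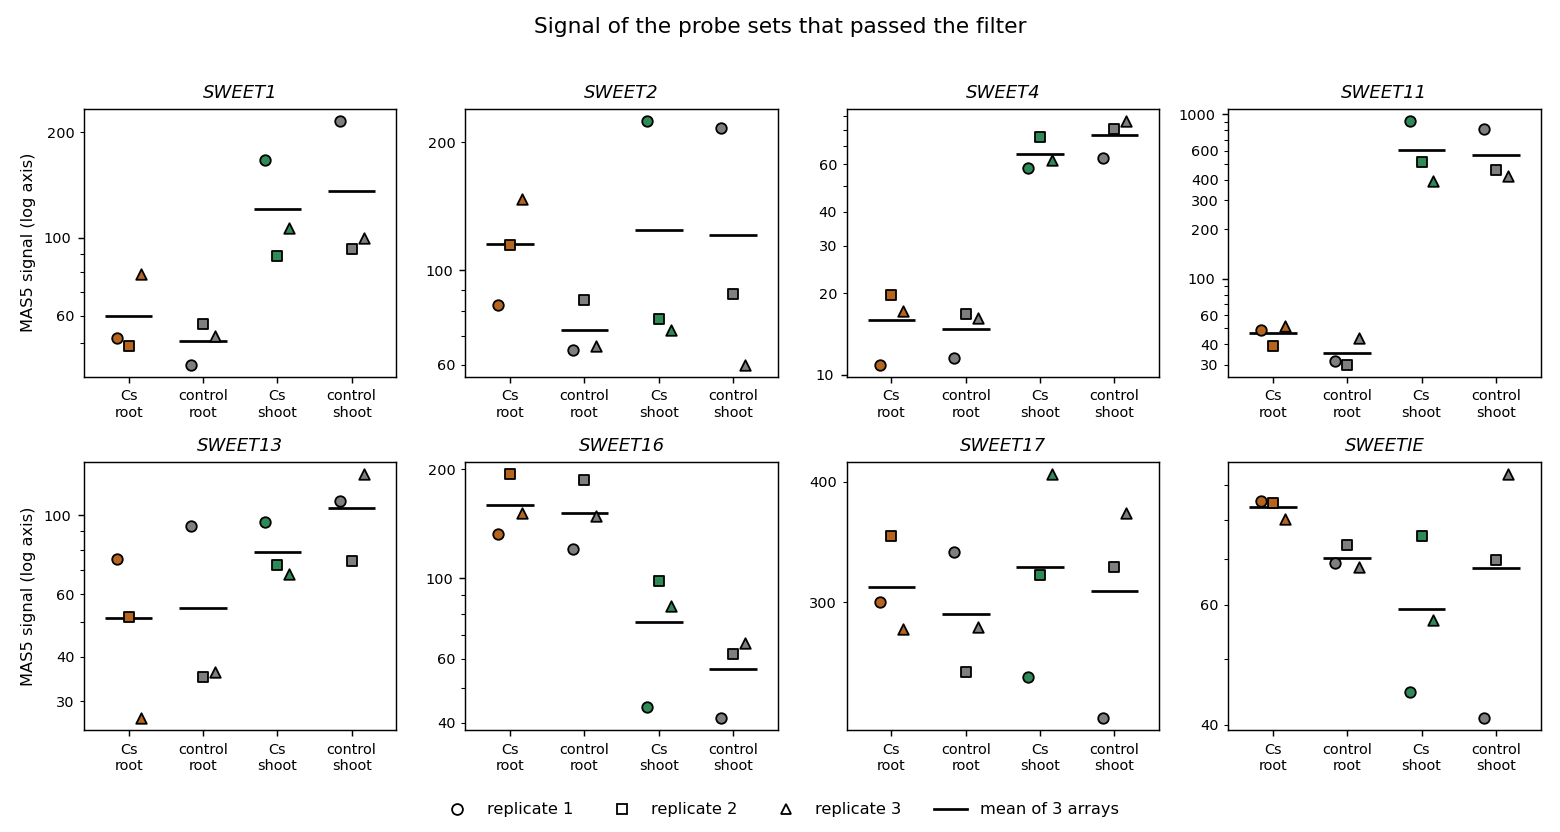
MAS5 signal (vertical log axes, 1 panel per gene) of the 7 tested SWEET transporters and SWEETIE in Cs roots, control roots, Cs shoots and control shoots. Symbols are single arrays by replicate number and bars are means of 3 arrays. SWEET4 and SWEET11 were lower in every root array than in any shoot array, SWEET16 was higher in every root array than in any shoot array, and SWEET2 had 2 high shoot arrays, both numbered 1.

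The organ of the plant set the largest differences among the tested SWEET transporters. In Cs plants, 3 of the 7 (SWEET1, SWEET4 and SWEET11) were lower and 1 (SWEET16) was higher in roots than in shoots. In control plants SWEET13 joined the lower ones, which made 4 lower and 1 higher. SWEET4 is among the lower ones in both, and it entered the test through its shoot signal alone. Across all probe sets tested, 58.0% were called between roots and shoots in Cs plants, 36.1% higher and 21.9% lower in roots. In control plants 60.3% were called, 38.0% higher and 22.3% lower in roots. A call between organs was thus common on this array, and 4 or 5 calls among 7 genes are close to that background. In both Cs and control plants 3 of the 7 had all roots below all shoots and 1 had all roots above them. Of all probe sets tested 64.9% did not overlap in Cs plants (40.6% higher and 24.3% lower in roots) and 65.6% in control plants (41.5% higher and 24.1% lower). The median log2 fold change of the 7 was -0.59 in Cs plants and -0.89 in control plants, against 0.22 and 0.24 over all probe sets tested. In these bulk tissues a lower share of the cells that express a gene and less RNA of it per cell cannot be told apart.

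SWEET11 (AT3G48740), the sucrose exporter of leaf phloem parenchyma, had the largest organ difference of the 7. Its signal was 49.0, 39.3 and 52.1 in the 3 Cs roots and 31.6, 30.2 and 43.9 in the 3 control roots. It was 911, 510 and 393 in the 3 Cs shoots and 814, 461 and 418 in the 3 control shoots. No root array came near a shoot array. The means were 46.8 ± 6.70 in Cs roots, 35.2 ± 7.54 in control roots, 605 ± 271 in Cs shoots and 564 ± 217 in control shoots (SD, n = 3 each). In Cs plants SWEET11 was lower in roots, at -3.33 ± 0.30 on the log2 scale (SE, limma adjusted p = 1.0e-06). In control plants the log2 difference was -3.59 ± 0.30 (limma adjusted p = 4.95e-07). The shoot markers were not absent from roots. Their median signal was 115, 487 and 66.3 in the 3 Cs roots and 177, 62.6 and 81.0 in the 3 control roots. The part of any shoot tissue in the root signals of SWEET11 was not tested.

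SWEET13 (AT5G50800), a sucrose carrier of the same clade that has also been shown to move gibberellin, gave a less firm difference. Its signal was 75.3, 51.7 and 26.9 in Cs roots and 93.4, 35.1 and 36.1 in control roots. In shoots it was 95.8, 72.4 and 68.3 under Cs and 109, 74.2 and 130.3 in controls. The root and shoot arrays overlapped in both Cs and control plants, the root arrays numbered 1 being as high as shoot arrays. The log2 difference between roots and shoots was -0.59 ± 0.35 in Cs plants (limma adjusted p = 0.160) and -0.89 ± 0.35 in control plants (limma adjusted p = 0.0412). The call in control plants did not survive the loss of several single arrays. The limma adjusted p was 0.151 without control root replicate 2, 0.144 without control root replicate 3, 0.130 without control shoot replicate 3 and 0.0889 without control shoot replicate 1. It was 0.0518 without Cs root replicate 2, 0.0518 without Cs shoot replicate 2 and 0.0505 without Cs shoot replicate 3. It was 0.0621 when all 22746 probe sets were tested with no filter. SWEET13 and SWEET10 (AT5G50790) lie next to each other in the genome, with 0 coding genes between them in the TAIR10.1 table.

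SWEET4 (AT3G28007), a hexose carrier known from leaf veins, was dim in roots and moderate in shoots. Its signal was 10.9, 19.8 and 17.2 in Cs roots and 11.5, 16.7 and 16.2 in control roots, against 58.3, 75.7 and 62.1 in Cs shoots and 63.3, 81.0 and 86.7 in control shoots. The highest root array was below the lowest shoot array. The log2 difference was -1.51 ± 0.18 in Cs plants (limma adjusted p = 1.64e-05) and -1.77 ± 0.18 in control plants (limma adjusted p = 3.85e-06). Its root signals are close to the pseudocount of 11, and the size of the difference depends on it. With a pseudocount of 44 the log2 difference was -0.87 in Cs plants and -1.04 in control plants, and the calls held.

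SWEET1 (AT1G21460), a glucose carrier of the plasma membrane, was lower in roots by a smaller amount. Its signal was 51.8, 49.2 and 78.9 in Cs roots and 43.5, 56.6 and 52.4 in control roots, against 166, 88.7 and 107 in Cs shoots and 216, 92.8 and 99.8 in control shoots. Roots and shoots did not overlap in either Cs or control plants, though the highest Cs root and the lowest Cs shoot lay close together. The log2 difference was -0.87 ± 0.30 in Cs plants (limma adjusted p = 0.0232) and -1.16 ± 0.30 in control plants (limma adjusted p = 0.00460). The call in Cs plants was lost without Cs root replicate 1 (limma adjusted p = 0.0697), without Cs root replicate 2 (limma adjusted p = 0.0776) and without Cs shoot replicate 1 (limma adjusted p = 0.0980). The call in control plants held in all 12 such fits, with limma adjusted p-values up to 0.0187.

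SWEET16 (AT3G16690), a tonoplast carrier of several sugars, ran the other way. Its signal was 132, 193 and 151 in Cs roots and 120.2, 186 and 149 in control roots. In shoots it was 44.3, 98.5 and 84.2 under Cs and 41.3, 61.7 and 66.4 in controls. Every root array was above every shoot array. The log2 difference was 1.01 ± 0.26 in Cs plants (limma adjusted p = 0.00503) and 1.27 ± 0.26 in control plants (limma adjusted p = 0.00106), and both calls held without each array in turn.

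The other tonoplast members showed no such split. SWEET17 (AT4G15920), the fructose carrier of the vacuole, had signals of 299.8, 352 and 282 in Cs roots and 338, 254 and 282 in control roots. In shoots they were 251, 320.0 and 407 under Cs and 228, 326 and 371 in controls. The shoot arrays spanned a wider range than the root arrays and enclosed them. The log2 difference was -0.04 ± 0.21 in Cs plants (limma adjusted p = 0.869) and -0.06 ± 0.21 in control plants (limma adjusted p = 0.820).

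SWEET2 (AT3G14770), known in roots for keeping sugar in the vacuole and limiting its loss to the soil around the root, had signals of 83.1, 115 and 147 in Cs roots and 64.8, 85.3 and 66.4 in control roots. In shoots they were 225, 76.7 and 72.2 under Cs and 216, 87.9 and 60.005 in controls. A single array in each shoot group, in both cases that numbered 1, stood far above the other arrays of its group. The log2 difference between roots and shoots was 0.04 ± 0.43 in Cs plants (limma adjusted p = 0.945) and -0.50 ± 0.43 in control plants (limma adjusted p = 0.338), with the largest standard error among the 7.

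**Figure D2:**
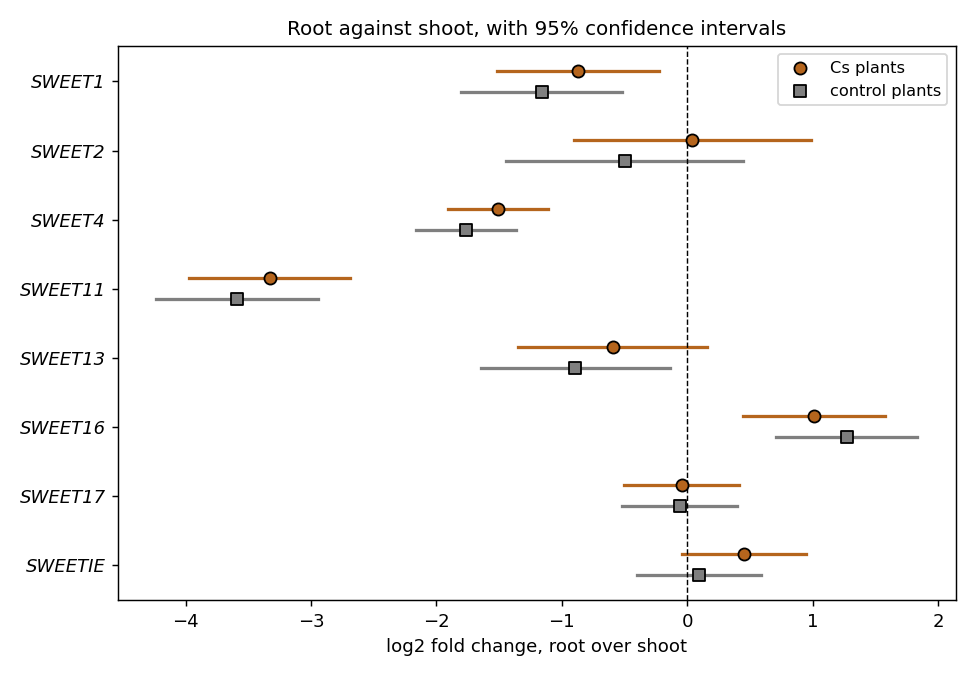
Log2 fold change of root over shoot (horizontal axis) for the 7 tested SWEET transporters and SWEETIE, with circles for Cs plants, squares for control plants and lines for 95% confidence intervals of the limma fit. SWEET11, SWEET4 and SWEET1 lie below 0 and SWEET16 above 0 in both Cs and control plants. The interval of SWEET13 excludes 0 in control plants and includes it in Cs plants, and those of SWEET2, SWEET17 and SWEETIE include 0.

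The order of the 4 group means followed the organ for most of these genes. For SWEET11 and SWEET4 both shoot groups were above both root groups, and within an organ the Cs and control groups overlapped. SWEET1 had the same order of organs, with wide shoot groups whose array numbered 1 was the highest. For SWEET16 both root groups were above both shoot groups. For SWEET13 both shoot means were above both root means as well, but neighbouring groups in the order overlapped. For SWEET2, with overlap too, this order held for the linear means, which include the high shoot arrays numbered 1. On the log2 scale of the fit SWEET2 was not lower in roots of Cs plants, at 0.04 ± 0.43. Groups also overlapped for SWEET17, whose means did not follow the organ. The scale between organs depends on the normalization. The median log2 difference of all probe sets between roots and shoots was 0.22 in Cs plants and 0.24 in control plants as deposited, 0.15 and 0.18 after quantile normalization, and 0.10 and 0.14 after centring each array on its median. Under those 2 scalings SWEET11 was at -3.36 and -3.45 in Cs plants, SWEET4 at -1.64 and -1.63, SWEET1 at -0.97 and -0.99 and SWEET16 at 0.94 and 0.89.

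The question the series poses, as its title gives it, is what caesium-137 exposure changed. No SWEET transporter was called between Cs and control plants. Of the members, this was 0 of 7 in shoots, 0 of 7 in roots and 0 of 7 for the difference between the responses of the organs. Nor was any other probe set, with 0 of 15508 called in each of the 3 comparisons by limma (0% each), and 324 in shoots, 589 in roots and 341 for the difference at an unadjusted p under 0.05. None of the 7 had an unadjusted p under 0.05. The lowest among them was 0.237 in shoots (SWEET16), 0.209 in roots (SWEET2) and 0.342 for the difference (SWEET4). With 3 arrays a group the number of arrays limits the precision, and the 95% interval of the median probe set reached 0.43 on the log2 scale to either side within an organ.

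In roots the signal of SWEET2 gave the largest log2 difference between Cs and control among the 7, at 0.58 ± 0.43, with a 95% interval from -0.37 to 1.52 (limma adjusted p = 1.00). The Cs roots averaged 115 ± 32.03 and the control roots 72.2 ± 11.4 (SD, n = 3 each), and the groups overlapped because Cs root replicate 1, at 83.1, lay under control root replicate 2, at 85.3. Between arrays of the same number the log2 difference was 0.31, 0.38 and 1.03. SWEET11 stood at 0.33 ± 0.30 in roots, with an interval from -0.32 to 0.97, and SWEET1 at 0.18 ± 0.30, from -0.46 to 0.82. SWEET4, SWEET13, SWEET16 and SWEET17 lay between -0.05 and 0.09. The values of 6 of the 7 were above 0 in roots, with a median of 0.09, against 0.00 over all probe sets tested. In none of these 7 were all Cs roots on one side of all control roots, as was the case for 8.89% of all probe sets tested (4.57% higher and 4.32% lower in Cs).

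In shoots the largest log2 differences were those of SWEET13, at -0.35 ± 0.35 with an interval from -1.10 to 0.41, and SWEET16, at 0.32 ± 0.26 with an interval from -0.24 to 0.89. SWEET13 was lower in Cs than in control shoots at each of the 3 replicate numbers, by a log2 difference of -0.17, -0.03 and -0.83. SWEET16 was higher at each number, by 0.08, 0.59 and 0.30. SWEET4 was at -0.20 ± 0.18 in shoots, from -0.60 to 0.20, and was lower at each number. SWEET11, SWEET2, SWEET17 and SWEET1 lay between -0.11 and 0.08. In shoots 4 of the 7 values were above 0 and 3 below, with a median of 0.04, against 0.01 over all probe sets tested. Again none of the 7 had all Cs shoots on one side of all control shoots, against 6.35% of all probe sets tested (4.20% higher and 2.15% lower in Cs).

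The fit takes no account of the replicate numbers, so its intervals take in the shift of the shoot arrays numbered 1 described below. Within that limit, the intervals give the sizes left possible by these arrays. For SWEET11 in shoots the log2 difference between Cs and control lay between -0.57 and 0.72, and for SWEET17 between -0.38 and 0.54 in shoots and between -0.36 and 0.55 in roots. For SWEET4 in roots, dim in all arrays there, it lay between -0.35 and 0.46. The widest interval was that of SWEET2, which reached from -0.91 to 0.98 in shoots. Between shoots of the same number the log2 difference was 0.05, -0.17 and 0.23 for SWEET2 and 0.16, 0.14 and -0.09 for SWEET11. The difference of the responses, roots minus shoots, ranged from -0.26 ± 0.37 for SWEET16 to 0.54 ± 0.61 for SWEET2, with 6 of 7 above 0 and a median of 0.26, against -0.01 over all probe sets tested.

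**Figure D3:**
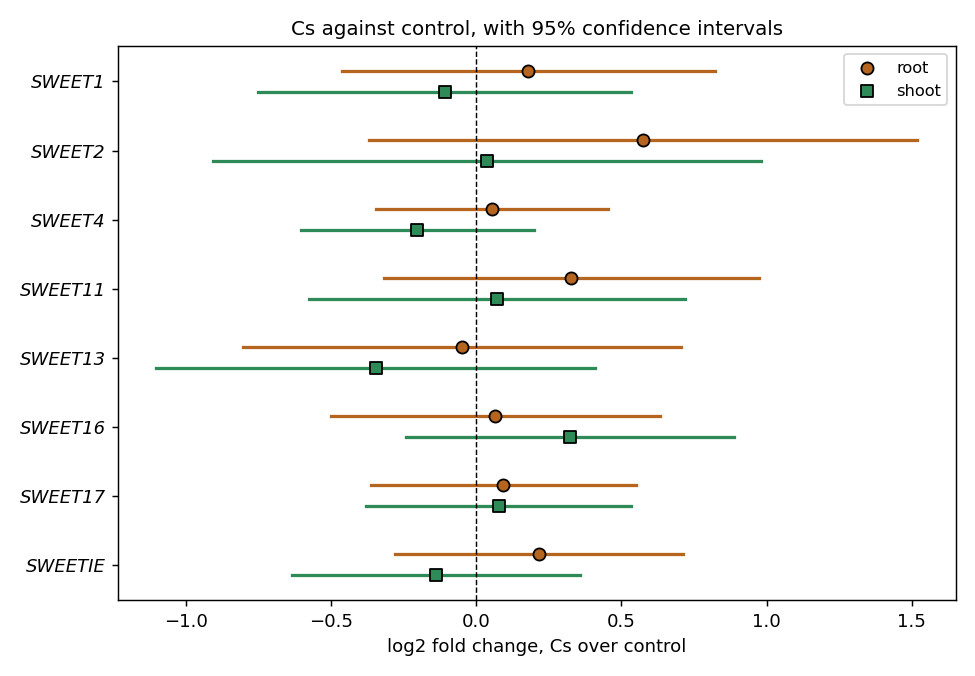
Log2 fold change of Cs over control (horizontal axis) for the 7 tested SWEET transporters and SWEETIE, with circles for roots, squares for shoots and lines for 95% confidence intervals of the limma fit. Every interval includes 0, and the interval of SWEET2 is the widest.

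A second pattern followed the replicate number and not the exposure. The labels number the replicates 1 to 3 in each group and do not say what a number stands for. In shoots both arrays numbered 1, of the Cs and of the control group, lay apart from the 4 arrays numbered 2 and 3 for 41.1% of all probe sets tested, 19.2% higher and 21.8% lower. Among the 7 tested SWEET transporters 3 were higher on the arrays numbered 1 (SWEET1, SWEET2 and SWEET11) and 2 were lower (SWEET16 and SWEET17). SWEET2 on the array numbered 1 exceeded the mean of the arrays numbered 2 and 3 by 1.46 on the log2 scale in Cs shoots and 1.44 in control shoots. SWEET11 exceeded it by 1.01 and 0.87 and SWEET1 by 0.71 and 1.08, Cs shoots first. SWEET16 stood at -0.88 in Cs shoots and -0.52 in control shoots on the same measure, and SWEET17 at -0.51 and -0.59. In these 5 genes the shift was larger in size than the fitted difference between Cs and control shoots.

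SWEET15 (AT5G13170), the sucrose carrier also known as SAG29, a gene of senescing leaves and filling seeds, had the largest shift of this kind among the SWEET genes tested. Its signal was 165, 8.18 and 5.69 in the 3 Cs shoots and 176, 3.75 and 24.3 in the 3 control shoots. In roots it was 22.4, 24.8 and 24.4 under Cs and 13.1, 19.1 and 15.4 in controls. Both shoot arrays numbered 1 were bright and the other 4 were dim. On the log2(signal + 11) scale the arrays numbered 1 exceeded the mean of the other arrays of their group by 3.30 in Cs shoots and 3.03 in control shoots. The spread this gave the fit was wide, and between roots and shoots the log2 difference of SWEET15 was -0.14 ± 0.89 in Cs plants (limma adjusted p = 0.906) and -0.78 ± 0.89 in control plants (limma adjusted p = 0.464). Without the 4 arrays numbered 1 it was 0.99 ± 0.38 in Cs plants (limma adjusted p = 0.0462) and 0.30 ± 0.38 in control plants (limma adjusted p = 0.516). All 3 Cs roots were above all 3 control roots, as for 4.57% of all probe sets tested. The log2 difference in roots was 0.38 ± 0.89 (limma adjusted p = 1.00), with an SE that takes in the spread of the shoot arrays. With the root arrays fitted alone it was 0.38 ± 0.17 (limma adjusted p = 0.996). In shoots Cs and control differed by -0.26 ± 0.89 (limma adjusted p = 1.00), with overlapping groups.

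Among genes of sugar metabolism the sucrose phosphate synthase ATSPS4F, an enzyme of sucrose synthesis, was also higher on the shoot arrays numbered 1, by 1.69 in Cs shoots and 1.23 in control shoots. TMT2 was lower there, at -0.72 and -0.80, and so was TMT1, at -1.09 and -0.17, both of them proteins that load hexose into the vacuole. TMT3 went the other way and was higher there, by 0.54 and 0.50. AT1G34580 was also higher, by 0.37 and 0.46, and AT5G17010 by 0.14 and 0.52. For AT5G61520, cwINV6 and AT1G62660 the shoot arrays numbered 1 did not stand apart. The root markers moved in opposite directions, with PYK10 at -0.98 and -0.56 and EXPA7 at 0.61 and 0.86. The part of any of these in the SWEET values was not tested.

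In roots the arrays numbered 1 lay apart for 24.6% of all probe sets tested, 10.9% higher and 13.7% lower. SWEET13 was higher on them, by 0.82 in Cs roots and 1.16 in control roots on the log2 scale. So was the dim SWEET14 (AT4G25010), its close relative, by 1.29 and 1.16, while the dim SWEET8 was lower, at -0.17 and -0.97. SWEET4 was lower, at -0.43 and -0.29, and so was SWEET16, at -0.35 and -0.44.

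Leaving out the 4 arrays numbered 1, a choice made after seeing the data, moved several values. The log2 difference of SWEET2 between roots and shoots became 0.72 ± 0.21 in Cs plants (limma adjusted p = 0.0149), against 0.04 with all arrays, and 0.04 in control plants (limma adjusted p = 0.876), against -0.50. SWEET1 moved to -0.56 in Cs plants (limma adjusted p = 0.0445) and -0.71 in control plants (limma adjusted p = 0.0147). SWEET13 was then called in both Cs plants, at -0.74 (limma adjusted p = 0.0462), and control plants, at -1.24 (limma adjusted p = 0.00358). SWEET11 was at -3.03 and -3.24, SWEET4 at -1.43 and -1.79 and SWEET16 at 0.84 and 1.24 in Cs and control plants, all still called. With those arrays left out 6 SWEET transporters were called between organs in Cs plants and 5 in control plants. The share of all probe sets called between organs in that fit is not given here, so these counts cannot be set against it. SWEET2 in Cs against control roots was at 0.71 ± 0.21 (limma adjusted p = 0.414), and still none of the 7 was called between Cs and control.

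**Figure D4:**
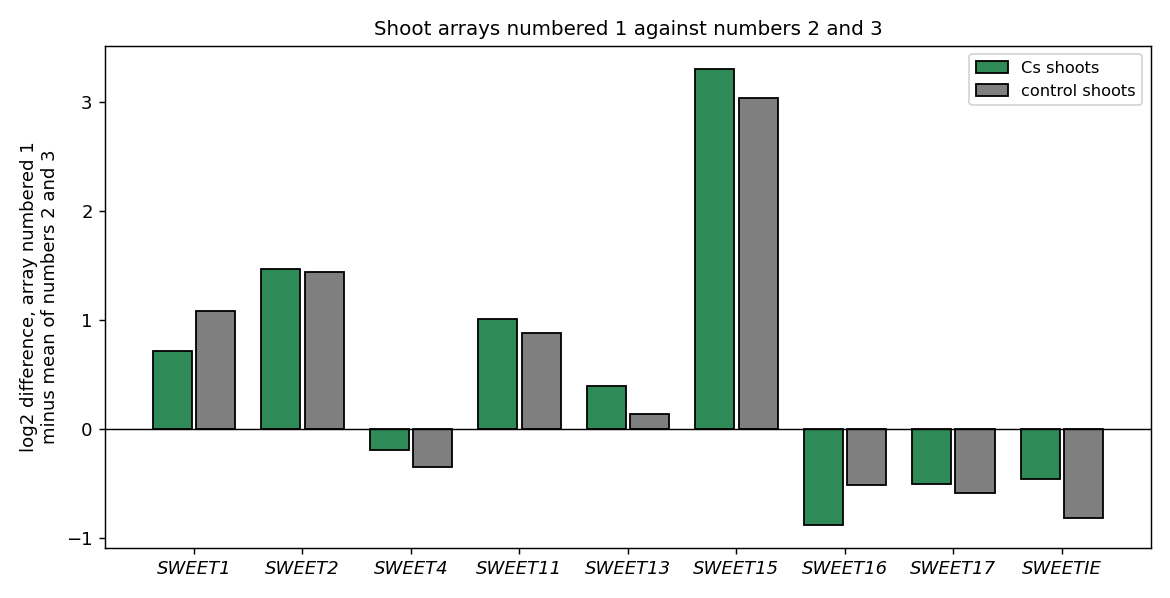
Bars give the log2 difference of the array numbered 1 from the mean of the arrays numbered 2 and 3 of its group in shoots, for the tested SWEET transporters, SWEETIE and SWEET15, by group. SWEET15, SWEET2, SWEET11 and SWEET1 are above 0 in both Cs and control shoots, and SWEET16, SWEET17 and SWEETIE are below 0 in both.

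The 7 members that were not tested include genes known from flowers. Their signals ran from 4.30 to 42.6 over all arrays, and a dim signal does not show that a gene is silent. SWEET8 (AT5G40260), needed for the pollen wall, averaged 14.8 ± 2.70 in Cs roots, 14.1 ± 8.49 in control roots, 17.1 ± 4.41 in Cs shoots and 16.8 ± 5.11 in control shoots (SD, n = 3 each). SWEET9 (AT2G39060), the sucrose exporter of nectaries, averaged 15.1 ± 7.12, 15.8 ± 3.44, 20.0 ± 5.99 and 20.0 ± 7.96 in the same order. In shoots both genes were higher on the arrays numbered 1, at 21.9 and 22.7 for SWEET8 and 26.7 and 28.0 for SWEET9 in Cs and control shoots.

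SWEET10 (AT5G50790), a sucrose carrier induced at the transition to flowering, had signals of 24.6, 23.0 and 28.4 in Cs roots and 21.2, 25.6 and 15.6 in control roots. In shoots they were 33.1, 17.3 and 28.2 under Cs and 10.3, 23.8 and 18.8 in controls. All 4 groups overlapped. SWEET14 averaged 14.1 ± 14.2 in Cs roots, 19.1 ± 15.3 in control roots, 21.9 ± 7.35 in Cs shoots and 25.2 ± 3.72 in control shoots, and its root spread came from the arrays numbered 1, at 30.5 in Cs roots and 36.6 in control roots. SWEET6 (AT1G66770) averaged 28.2 ± 6.28, 24.1 ± 5.40, 22.0 ± 13.7 and 32.8 ± 12.5 in the same order, with overlapping groups.

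SWEET7 (AT4G10850), a carrier of glucose and xylose, was dim but ordered by organ. Its signal was 4.94, 9.52 and 11.0 in Cs roots and 9.61, 7.23 and 14.1 in control roots, against 16.9, 17.9 and 25.5 in Cs shoots and 26.5, 18.3 and 15.04 in control shoots. Each root array was below each shoot array of its exposure. In the fit of all 22746 probe sets without the filter, the log2 difference between roots and shoots was -0.68 ± 0.20 in Cs plants (limma adjusted p = 0.0178) and -0.53 ± 0.20 in control plants (limma adjusted p = 0.0519), where 41.9% and 42.9% of all probe sets were called. Without the filter 20.1% of all probe sets had all roots below all shoots in Cs plants, and 20.1% in control plants.

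SWEET3 (AT5G53190) was the one dim member whose Cs and control arrays did not overlap in an organ. Its signal was 31.9, 25.7 and 29.2 in Cs shoots, against 17.8, 10.5 and 25.4 in control shoots, and the lowest Cs shoot exceeded the highest control shoot by a small margin. In roots it was 21.5, 18.7 and 20.7 under Cs and 17.7, 11.7 and 29.0 in controls, which overlapped. The log2 difference in shoots in the fit without the filter was 0.50 ± 0.24 (limma adjusted p = 1.00), and 4.66% of all 22746 probe sets had all Cs shoots above all control shoots. SWEET5 (AT5G62850), a gene of pollen, was between 2.06 and 35.9 on all arrays, with no order of the groups.

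**Figure D5:**
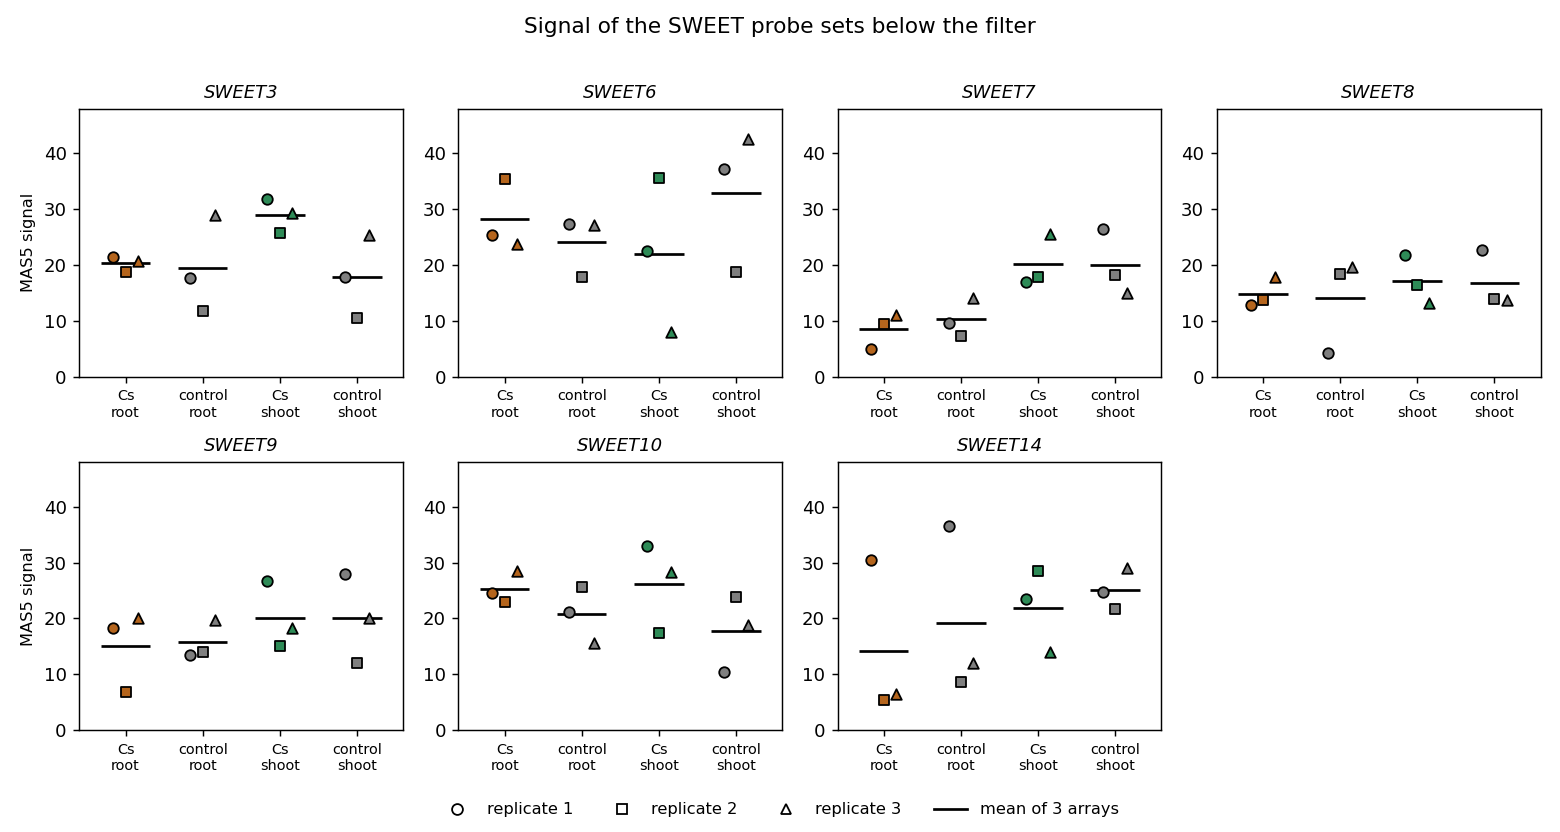
MAS5 signal (vertical linear axes, 1 panel per gene) of the 7 SWEET transporters that were not tested, in Cs roots, control roots, Cs shoots and control shoots. Symbols are single arrays by replicate number and bars are means of 3 arrays. SWEET7 is lower in roots than in shoots, SWEET14 has high root arrays numbered 1, and in SWEET3 all Cs shoots are above all control shoots.

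SWEETIE, named after a dwarf mutant with altered sugar metabolism, had signals of 85.3, 84.8 and 80.2 in Cs roots and 69.1, 73.4 and 68.1 in control roots. In shoots they were 44.7, 75.8 and 56.9 under Cs and 40.9, 69.8 and 93.3 in controls. All Cs roots were above all control roots, as for 4.57% of all probe sets tested, and above all Cs shoots, as for 40.6%. The log2 difference of Cs against control was 0.22 ± 0.23 in roots (limma adjusted p = 1.00) and -0.14 ± 0.23 in shoots. Between roots and shoots it was 0.45 ± 0.23 in Cs plants (limma adjusted p = 0.106) and 0.10 ± 0.23 in control plants (limma adjusted p = 0.731). The value in Cs plants passed the threshold without control shoot replicate 1 (limma adjusted p = 0.0370).

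Other genes that move or cleave sugar were thinly covered. A fixed list of 36 other sugar transporter genes had 8 with a probe set of their own and 6 of these tested, and a list of 22 genes of sucrose synthesis and cleavage had 3, all tested. Between roots and shoots, 1 of the 6 transporters was higher and 1 lower in Cs plants, and 1 was higher and 2 lower in control plants. Of all probe sets tested 36.1% were called higher and 21.9% lower in Cs plants, and 38.0% and 22.3% in control plants. TMT1, a tonoplast monosaccharide transporter, was higher in roots by 1.46 ± 0.26 in Cs plants (limma adjusted p = 0.000342) and 1.11 ± 0.26 in control plants (limma adjusted p = 0.00242), the direction of SWEET16. Its signal averaged 377 ± 73.4 in Cs roots, 371 ± 18.8 in control roots, 136 ± 54.7 in Cs shoots and 166 ± 16.3 in control shoots (SD, n = 3 each). TMT2, its relative, was lower in roots of control plants, at -0.67 ± 0.25 (limma adjusted p = 0.0371) and stood at -0.54 in Cs plants (limma adjusted p = 0.0887). The call of TMT2 in control plants was lost without control root replicate 2 (limma adjusted p = 0.147), control root replicate 3 (0.0621), control shoot replicate 2 (0.128) or control shoot replicate 3 (0.128), and with no filter (0.0522). In Cs plants TMT2 passed the threshold without control shoot replicate 1 (limma adjusted p = 0.0440) or Cs shoot replicate 1 (0.0193), with quantile normalization (0.0433) and with median centring (0.0368). AT5G61520 was lower in roots, at -1.33 ± 0.25 in Cs plants (limma adjusted p = 0.000683) and -1.59 ± 0.25 in control plants (limma adjusted p = 0.000157). It passed the filter through its shoot signal alone, and with a pseudocount of 44 the log2 differences were -0.86 and -1.02, still called.

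All 3 genes of the sucrose list differed between organs, 2 higher and 1 lower in roots in both Cs and control plants. Such a call was common, at 58.0% of all probe sets tested in Cs plants and 60.3% in control plants. The cell wall invertase family member cwINV6 averaged 302 ± 115 in Cs roots, 196 ± 55.0 in control roots, 37.4 ± 7.84 in Cs shoots and 34.2 ± 10.2 in control shoots (SD, n = 3 each). It was higher in roots by 2.63 ± 0.29 in Cs plants (limma adjusted p = 6.82e-06) and 2.18 ± 0.29 in control plants (limma adjusted p = 3.54e-05). AT1G62660 was higher in roots by 2.35 ± 0.23 and 2.47 ± 0.23. ATSPS4F was lower in roots, at -2.75 ± 0.47 in Cs plants (limma adjusted p = 0.000282) and -3.29 ± 0.47 in control plants (limma adjusted p = 6.15e-05), with shoot arrays as wide apart as described above. It too passed the filter through its shoot signal alone. Its root signals lay below the pseudocount, and the size of the difference depends on it, at -1.60 and -1.90 with a pseudocount of 44 and -3.62 and -4.45 with 2.75 in Cs and control plants, all called.

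Between Cs and control plants none of these 9 genes was called in either organ or for the difference. The 2 with the smallest p in each list and comparison were as follows. In shoots TMT1 was at -0.35 ± 0.26, AT1G34580 at 0.22 ± 0.23, AT1G62660 at 0.23 ± 0.23 and ATSPS4F at -0.31 ± 0.47 (log2, SE). In roots TMT3 was at -0.31 ± 0.24, AT5G17010 at -0.22 ± 0.19, cwINV6 at 0.56 ± 0.29 and ATSPS4F at 0.23 ± 0.47. For the difference, roots minus shoots, TMT1 was at 0.35 ± 0.36, TMT3 at -0.34 ± 0.34, cwINV6 at 0.45 ± 0.41 and ATSPS4F at 0.54 ± 0.66.

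The genes whose log2 signals ran most like each tested SWEET transporter over the 12 arrays were found by Pearson's r among the tested probe sets that name a single gene. The 12 points share the split into roots and shoots, so a high r follows for any pair of genes with the same organ difference. The shift of the shoot arrays numbered 1, seen for 41.1% of all probe sets tested, also raises r between genes that shift the same way. No p is given. For SWEET11 the 3 closest were AT3G01060 (r = 0.997), AT4G26860 (r = 0.995) and AT4G13220 (r = 0.994). For SWEET4 they were AT3G53470 (r = 0.993), AT1G74640 (r = 0.991) and AT5G35170 (r = 0.991). For SWEET1 they were AT2G29340 (r = 0.983), AT1G48570 (r = 0.978) and AT2G36835 (r = 0.973). For SWEET16, the member higher in roots, they were AT3G57480 (r = 0.985), AT5G06560 (r = 0.979) and AT2G36410 (r = 0.979).

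The members without a firm organ difference had looser partners. SWEET13 ran most like AT5G23890 (r = 0.974), AT3G13040 (r = 0.934) and AT3G57020 (r = 0.916). SWEET2 ran most like HCT (r = 0.934), an acyltransferase of lignin synthesis, AT1G10850 (r = 0.910) and AT1G32430 (r = 0.905). SWEET17 had the lowest values, with AT4G36010 (r = 0.896), AT1G23960 (r = 0.839) and AT4G13530 (r = 0.830). SWEETIE ran most like AT1G76580 (r = 0.934), ATBRXL2 (r = 0.912) and IQD30 (r = 0.894).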

How the data were processed

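Total RNA of 6 root and 6 shoot samples was measured on ATH1 arrays, and the sample titles gave each array's group and number. The values are intensities deposited by the authors, made with MAS5 per the submitters' processing notes, with no version given. Each array's 2% trimmed mean was 100.01 and the array medians ran from 41.1 to 49.6, and no arrays held identical values (0 pairs). The sources used here give no background correction and no detection calls. Of 22810 probe sets 64 are controls, and 13513 of the other 22746 name a single gene in the platform annotation, which can be old. Loci were matched to the TAIR10.1 RefSeq table, and no sequences or coordinates are given.

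Signals were transformed as log2(signal + 11), which understates fold changes of dim probe sets. Limma 3.58.1 in R 4.3.3 fitted 4 group means to 12 arrays (8 residual degrees of freedom, eBayes with an intensity trend), with Benjamini-Hochberg adjustment over 15508 probe sets. The fit was tested on simulated data with independent noise on each array. Those data held no shift by replicate number, so that test does not cover the shift seen here. The comparisons were Cs against control in each organ, the difference of these, and root against shoot in Cs and in control plants. Every SWEET probe set is named. So are the 3 tested single-gene probe sets most like each tested one, from the gene lists the called members between organs (up to 6 per list in control plants), and for each Cs comparison the 2 members with the smallest p. The members and the lists were chosen with earlier results of these data known. Lists of vascular markers and of pollen, anther, seed and senescence markers had 0 of 6 genes each with a probe set of their own.

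Deviations from the group means of same-numbered Cs and control shoots correlated at 0.71, 0.41 and 0.45. Cs shoot 2 with control shoot 3 correlated at 0.37 and Cs shoot 3 with control shoot 2 at 0.20. Pairs of unlike number that held a number 1 ran from -0.43 to -0.58. The numbers thus set the arrays numbered 1 apart more clearly than they told 2 from 3. Same-numbered roots correlated at 0.47, -0.02 and 0.40. The main fit treats neither organ as paired. A term for the replicate number (the replicate block) was tried among the other settings.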

Additional observations from a re-analysis of the deposited data

How the results depend on the processing

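The SWEET and SWEETIE results (40, of which 9 were past the threshold) were recomputed under up to 24 settings. All 198 recomputed values of the 9 kept their direction and 11 of them missed the threshold, those of SWEET1 and SWEET13 given above. Of 714 recomputed values of the other 31, 49 turned sign and 3 passed the threshold. None of 560 in the Cs comparisons passed (0). The replicate block changed the call of 0 of 56 values. Values that turned sign were all uncalled (log2). With array weights SWEET1 was at 0.0417 and SWEET2 at -0.0089 between Cs and control shoots, and SWEET13 at 0.13 between Cs and control roots. Without the 4 arrays numbered 1 SWEET1 was at 0.0143 in Cs against control shoots, SWEET13 at 0.0649 in Cs against control roots, and between organs of control plants SWEET2 was at 0.0428 and SWEETIE at -0.17. With quantile normalization SWEET4 in Cs against control roots was at -0.0288, SWEET2 between organs of Cs plants at -0.0351 and SWEETIE between organs of control plants at -0.0002. With median centring SWEET17 for the difference was at -0.0019, SWEET2 between organs of Cs plants at -0.0824 and SWEETIE between organs of control plants at -0.0077. The causes were not tested.

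Without each array in turn, Cs against control shoots ran from -0.35 to 0.25 for SWEET1, -0.45 to 0.52 for SWEET2, -0.26 to 0.36 for SWEET11, -0.12 to 0.25 for SWEET17 and -0.41 to 0.0905 for SWEETIE. Cs against control roots ran from -0.0034 to 0.29 for SWEET1, -0.0472 to 0.20 for SWEET4, -0.32 to 0.34 for SWEET13 and -0.0788 to 0.22 for SWEET16. The difference ran from -0.0713 to 0.53 for SWEET1, -0.036 to 0.59 for SWEET11 and -0.15 to 0.21 for SWEET17. Root against shoot ran in Cs plants from -0.22 to 0.53 for SWEET2 and -0.21 to 0.12 for SWEET17, and in control plants from -0.26 to 0.083 for SWEET17 and -0.18 to 0.33 for SWEETIE. Among all probe sets, 1 was called in Cs against control roots with a pseudocount of 44, 11 with the replicate block within that organ alone, 5 without the arrays numbered 1, and 0 to 7 without each array in turn. Between organs 3 to 4 SWEET transporters were called in Cs plants and 4 to 5 in control plants without each array in turn. In those fits 8146 to 9299 of all 15508 probe sets were called in Cs plants and 8365 to 9481 in control plants, so such calls were common throughout. Dim signals limit what can be said of the members that were not tested. The settings were also run for SWEET15 and the tested sugar genes. SWEET15 between organs turned to 0.47 in Cs plants and 0.40 in control plants with array weights, and in Cs against control shoots ran from -1.36 to 0.75 without each array in turn. Besides TMT2, AT5G17010 between organs of Cs plants (-0.47, limma adjusted p = 0.0553) passed the threshold under several settings, with median centring at -0.59 (limma adjusted p = 0.0303).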
